A study of Danio rerio with 24 samples.

Results

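Larvae lacking Klf9 were compared with wildtype larvae in the morning, at ZT+2.5, that is 2.5 h after the lights came on. The comparison took every gene of the count table and the 8 pools collected at that time, 4 klf9-/- and 4 wildtype, of 24 pools in the study. The other 16 pools were taken 3 h before lights on (ZT-3) and at lights on (ZT0), again with 4 pools of each genotype. They served to see whether a difference returned in other animals and entered the fits of all 24 pools. A covariate described below was also computed from all 24 pools. All larvae were 5 days post-fertilization, kept on 14 h of light and 10 h of dark, and each RNA-seq library came from whole larvae pooled in groups of 6. The klf9-/- fish carry a CRISPR-made frameshift deletion in a line of the AB strain, and the wildtype fish descend from the same grandparents. No drug or hormone was given. A p-value here measures the spread between pools of larvae of a single mutant line, and the sources used here do not say how many crosses the pools came from.

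Klf9 is a zinc finger transcription factor of the Krüppel-like family that binds GC-rich promoter elements and mostly represses transcription. In vertebrates its gene is switched on by glucocorticoids and by thyroid hormone, and its RNA follows the daily rhythm in many tissues. It is known for roles in cell differentiation and physiology of liver, brain and blood, and for adjusting metabolic genes to hormonal signals.

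The 8 libraries held 46476926 to 57992402 expected counts each, and total counts did not separate the genotypes (exact two-sided permutation test, p = 0.2, n = 4 and 4). Of 31242 genes in the table, 22511 passed the filter on low counts and were tested. Levels are given as CPM, counts scaled to a common library size, which are not divided by transcript length, and always in the order of replicates 1 to 4. Fold changes are log2 of klf9-/- over wildtype from edgeR's quasi-likelihood test, and "adjusted p" is that test's Benjamini-Hochberg value over all genes tested. SE is the size of the log2 fold change divided by the square root of the test's F value, not a standard error reported by the fit. Calls, higher or lower, needed an adjusted p not above 0.1 together with a log2 fold change reaching 0.5 in size. Some list counts use an unadjusted p under 0.05. The share of all genes at that level was not counted for this comparison, so those counts have no background beside them. Genes of a list were measured in the same 8 libraries and can move together. Counts of list members by sign, call or overlap are therefore not independent observations.

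Replicates differed along the first principal component of all 24 libraries (PC1). The study carried its PC1 as a covariate, and PC1 as recomputed here stands in every fit unless stated. The paper reports that its PC1 was largely, and perhaps wholly, an artifact of RNA preparation. From follow-up experiments it traced this to uncontrolled time of the samples in lysis buffer. At ZT+2.5 the PC1 scores were 1.37, 0.37, -0.92 and -1.12 in the klf9-/- pools and 0.85, 0.57, -1.11 and -1.62 in the wildtype pools, in SD of the 24 scores. In both genotypes replicates 1 and 2 scored above 0 and replicates 3 and 4 below, and the genotype means differed by 0.25 (exact two-sided permutation test, p = 0.71, n = 4 and 4). Genes of mature neurons followed PC1 upward (median correlation of a gene with PC1 across the 24 libraries that define it, 0.78 over the 33 listed genes) and genes of the exocrine pancreas, intestine and liver followed it downward (-0.81, -0.67 and -0.61). A call that needs the PC1 term is named as such for most genes with values. Calls without PC1 are not given for the clone-named genes, p4ha1b, vgf or some genes near klf9.

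Altogether 377 genes (1.67%) were called higher and 137 (0.609%) lower in klf9-/- larvae. The median log2 fold change over all genes tested was 0.01. Secreted liver and inflammation proteins, digestive enzymes, drug-metabolizing enzymes and immune-related GTPases were among the genes that rose, and embryonic globins and cholesterol synthesis enzymes were among those that fell. The 4 klf9-/- pools lay entirely above or entirely below the 4 wildtype pools in 225 of the 377 and in 110 of the 137, against 763 (3.39%) and 1045 (4.64%) of all genes tested. DESeq2, run on the same genes with the PC1 term, called 522 higher and 158 lower, the totals to set beside its list counts below. Without the PC1 term 92 genes were called higher and 52 lower by edgeR. Leaving out 1 pool gave 183 to 399 genes higher and 75 to 185 lower, the fewest higher without klf9-/- replicate 3, where 174 of the 377 remained called, and the fewest lower without wildtype replicate 3, with 77 lower without klf9-/- replicate 3 and 89 without klf9-/- replicate 4. Without wildtype replicate 1, 243 genes were called higher.

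The targeted gene itself was lower in the mutants without passing the test. The klf9 level was 4.65, 9.9, 13.4 and 18.1 CPM in the klf9-/- pools and 36.3, 15.3, 37.6 and 31.3 CPM in the wildtype pools. Wildtype replicate 2 was low among its group and overlapped the highest mutant pool, and the other 3 wildtype pools were above every mutant pool. The difference (log2 fold change -1.40, SE 0.37, adjusted p = 0.11) was in the direction of the labels, and its adjusted p was 0.25 with the replicate number as a block in place of PC1 and 0.63 with both. In edgeR without wildtype replicate 1 the adjusted p was 0.058, with a log2 fold change of -0.94. The fold was -1.64 at ZT-3 and -1.64 at ZT0. Of the other 19 Klf family genes tested, 1 was called: klf4, a barrier and pluripotency factor, measured 0.925, 1.64, 2.34 and 2.51 CPM in klf9-/- and 1.11, 1.08, 1.01 and 1.39 CPM in wildtype pools, which overlapped (log2 fold change 0.72, SE 0.20, adjusted p = 0.088). The test was missed without the PC1 term (adjusted p = 0.39), with the replicate block in its place (adjusted p = 0.14), and with the block and PC1 together (adjusted p = 0.28) for klf4. Omission of a single pool ended the call for klf4 (adjusted p = 0.24, highest without klf9-/- replicate 3).

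**Figure D1:**
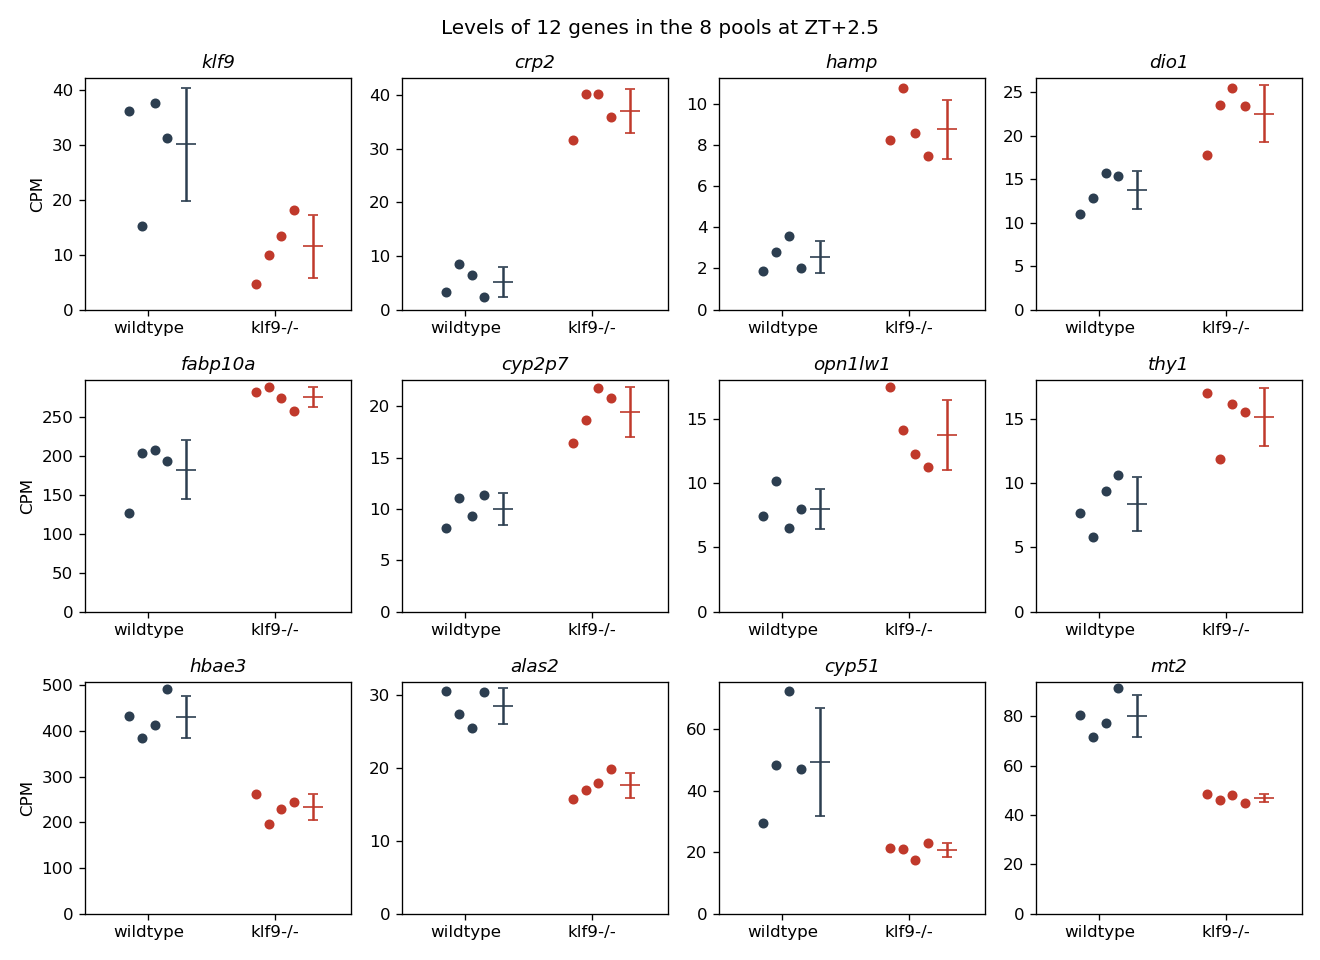
CPM of 12 genes in each of the 8 pools at ZT+2.5, wildtype in dark blue and klf9-/- in red, with a bar at the mean and whiskers of 1 SD (n = 4). The crp2 level lay between 31.6 and 40.3 in klf9-/- and between 2.38 and 8.44 in wildtype pools, and hbae3 between 196 and 261 against 384 to 491.

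C-reactive protein crp2, which liver secretes in inflammation and which tags microbes and dying cells, stood at 31.6, 40.3, 40.3 and 35.9 CPM in the klf9-/- pools and 3.19, 8.44, 6.39 and 2.38 CPM in the wildtype pools. Every mutant pool was more than any wildtype pool, and the difference (log2 fold change 2.86, SE 0.41, adjusted p = 0.025) held in all 8 fits that left out a pool. Hepcidin, hamp, the liver peptide that limits iron release into blood, was 8.24, 10.8, 8.57 and 7.47 CPM against 1.88, 2.78, 3.58 and 2.03 CPM, again with no overlap (log2 fold change 1.77, SE 0.22, adjusted p = 0.0083). Of the 13 inflammation genes tested, hamp alone was called, 11 of 13 were positive and the median was 0.26.

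Intelectin itln2, a lectin that binds microbial sugars, rose from 0.143, 0.146, 0.225 and 0.45 CPM in wildtype to 0.925, 1.45, 2.26 and 3.08 CPM in klf9-/- pools (log2 fold change 3.16, SE 0.19, adjusted p = 1.0e-04), and within each genotype its level climbed as PC1 fell. Lect2l, named for a leukocyte chemotaxis factor, was 10.4, 16.7, 21.9 and 27 CPM in klf9-/- and 5.45, 6.69, 12.5 and 12.9 CPM in wildtype pools. The lowest mutant pool lay below the 2 highest wildtype pools, and with PC1 in the fit the gene was called higher (log2 fold change 1.16, SE 0.081, adjusted p = 2.4e-04). It was the one gene called of 21 neutrophil and macrophage markers, of which 20 were positive with a median of 0.25.

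Several genes related to defense were called higher at low levels, while sp100.3 and mhc1uba, described below, were called lower. The immunity-related GTPases irgq1 and irge4, of a family known in mammals for attacking pathogen vacuoles, were 0.903, 0.643, 2.01 and 1.2 CPM and 0.33, 0.498, 1.08 and 0.886 CPM in klf9-/- pools against 0.0358, 0.219, 0.0937 and 0.45 CPM and 0.0179, 0.0731, 0.225 and 0.225 CPM in wildtype pools (log2 fold change 2.74, adjusted p = 0.023 and log2 fold change 2.62, adjusted p = 0.0039). Caspase caspbl, related to inflammatory caspases, was 2.91, 2.18, 1.38 and 2.0 CPM against 0, 0.201, 0.206 and 0.563 CPM (log2 fold change 3.12, adjusted p = 0.046). For trim35-1, of the tripartite motif family, the levels were 3.28, 2.03, 2.22 and 2.78 CPM and 0.0179, 0.384, 0.543 and 0.882 CPM (log2 fold change 2.61, adjusted p = 0.054), and for the galectin lgals9l5 3.9, 6.5, 7.91 and 7.07 CPM and 0.753, 0.786, 1.18 and 3.4 CPM (log2 fold change 2.32, adjusted p = 0.0095). In all of these every mutant pool exceeded every wildtype pool, and wildtype replicate 4 was the highest of its group in caspbl, irgq1, trim35-1 and lgals9l5. Of 15 genes of MHC and antigen presentation 1 was called, mhc1uba, with a list median of 0.14. The irg, trim and caspase families hold near-identical copies, so reads may be split between members. Of 15 interferon response genes 0 were called by edgeR or DESeq2, 2 had an unadjusted p under 0.05, and their median was 0.15. Significance was lost without the PC1 term for lect2l, irgq1, irge4, trim35-1 and lgals9l5 (adjusted p = 0.12 to 0.34), with the replicate block in its place for caspbl and trim35-1 (adjusted p = 0.11 to 0.15), and with the block and PC1 together for irgq1, caspbl and trim35-1 (adjusted p = 0.36 to 0.50). With 1 pool left out, the call ended for caspbl and trim35-1 (adjusted p = 0.12 to 0.13, highest without wildtype replicate 2).

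All 29 liver genes tested had positive fold changes, against 51.7% of all genes, with a median log2 fold change of 0.57, and 3 were called by edgeR and 11 by DESeq2. Fetuin ahsg1, a plasma glycoprotein, was 8.7, 17.2, 14.3 and 14.3 CPM in klf9-/- and 2.58, 5.48, 8.58 and 7.41 CPM in wildtype pools (log2 fold change 1.33, SE 0.28, adjusted p = 0.060). Liver fatty acid binding protein fabp10a was 283, 288, 275 and 258 CPM against 126, 204, 207 and 193 CPM with no overlap (log2 fold change 0.62, SE 0.15, adjusted p = 0.069). The apolipoprotein apoc1, carried on plasma lipoproteins, was 415, 551, 620.3 and 567 CPM against 212, 311, 532 and 518 CPM, with overlapping pools (log2 fold change 0.62, SE 0.16, adjusted p = 0.088). In the complement list, made largely by liver, 22 of 23 genes were positive with a median of 0.60, and the terminal component c7b was called (log2 fold change 0.57, adjusted p = 0.021). Coagulation genes had a median of 0.48 with 16 of 20 positive. By edgeR 0 were called, with 6 positive and 1 negative at an unadjusted p under 0.05 and 2 called higher by DESeq2, f9b having the highest value (log2 fold change 0.73, adjusted p = 0.25) and f13b the lowest (log2 fold change -0.64, adjusted p = 0.24).

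Liver markers summed to 10016 to 15047 CPM per klf9-/- pool and 4760.0 to 13716 CPM per wildtype pool, so the summed levels overlapped. Without the PC1 term the median was 0.42, and edgeR called 0 of the 29, with 2 at an unadjusted p under 0.05. With 1 pool left out the liver median was 0.33 to 0.71, lowest without wildtype replicate 1, with 0 to 2 genes called. Without that same pool the complement median was 0.31 and the coagulation median 0.24. Wildtype replicate 1 held the lowest summed liver level, 4760.0 CPM against 8809 to 13716 CPM in the other wildtype pools. In whole larvae, more cells of a type and more RNA per cell cannot be told apart, for liver as for each tissue below. At ZT0 the liver list had 18 genes called higher and a median of 0.54, and at ZT-3 it had 7 called and a median of 0.42.

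Pancreatic enzyme genes had the highest median of the 49 lists. All 22 exocrine genes tested were positive, the median log2 fold change was 0.96, and 6 were called higher by edgeR and 16 by DESeq2. Carboxypeptidase cpa1, which trims peptides in the gut, was 8.86, 32.7, 65.9 and 68.4 CPM in klf9-/- pools and 5.07, 12.2, 23.2 and 32.4 CPM in wildtype pools (log2 fold change 1.45, SE 0.28, adjusted p = 0.049). In both genotypes the pools with the lowest PC1 scores had the highest levels, and the mutant value was the higher one at every replicate number. The elastase ela3l behaved alike, with 95.2, 265, 468 and 459.5 CPM against 71.4, 107, 160.0 and 295 CPM (log2 fold change 1.18, SE 0.20, adjusted p = 0.030). Carboxypeptidase cpb1, phospholipase pla2g1b and the protease inhibitor spink4 were also called, with log2 fold changes of 1.23, 0.90 and 0.59.

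No exocrine gene had its 4 mutant pools above its 4 wildtype pools. Without the PC1 term 0 of 22 were called by edgeR, 1 had an unadjusted p under 0.05 and the median was 0.80, and with the replicate block in place of PC1 10 were called with a median of 0.71. Leaving out a pool gave 2 to 20 calls, with 2 without klf9-/- replicate 3 or wildtype replicate 1, 3 without klf9-/- replicate 2 or 4 or wildtype replicate 3, 4 without wildtype replicate 4, 19 without klf9-/- replicate 1 and 20 without wildtype replicate 2. At ZT-3 and ZT0 the list had medians of 0.80 and 0.81. Of 18 endocrine pancreas genes, 1 was called, the ghrelin gene ghrl, whose peptide stimulates feeding (0.441, 0.498, 0.857 and 0.823 CPM against 0.215, 0.292, 0.543 and 0.394 CPM, log2 fold change 0.96, adjusted p = 0.047), and the list's median was 0.07. The call was lost without the PC1 term for ahsg1, fabp10a, apoc1, c7b, cpa1, ela3l, cpb1, pla2g1b, spink4 and ghrl (adjusted p = 0.12 to 0.81), with the replicate block in its place for fabp10a, apoc1, ela3l and cpb1 (adjusted p = 0.1015 to 0.19), with the block and PC1 together for ahsg1, fabp10a, apoc1, c7b, ela3l, cpb1 and ghrl (adjusted p = 0.1021 to 0.48), and with the block and PC1 together, by the fold threshold alone, for spink4 (log2 fold change 0.46). Leaving out 1 pool ended the call for ahsg1, apoc1, cpa1, ela3l, pla2g1b and ghrl (adjusted p = 0.1016 to 0.21, highest without klf9-/- replicate 3) and fabp10a and cpb1 (adjusted p = 0.16 to 0.20, highest without klf9-/- replicate 2). The log2 fold change went under the threshold with 1 pool left out for c7b (0.497 without klf9-/- replicate 4) and spink4 (0.480 without wildtype replicate 1).

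**Figure D2:**
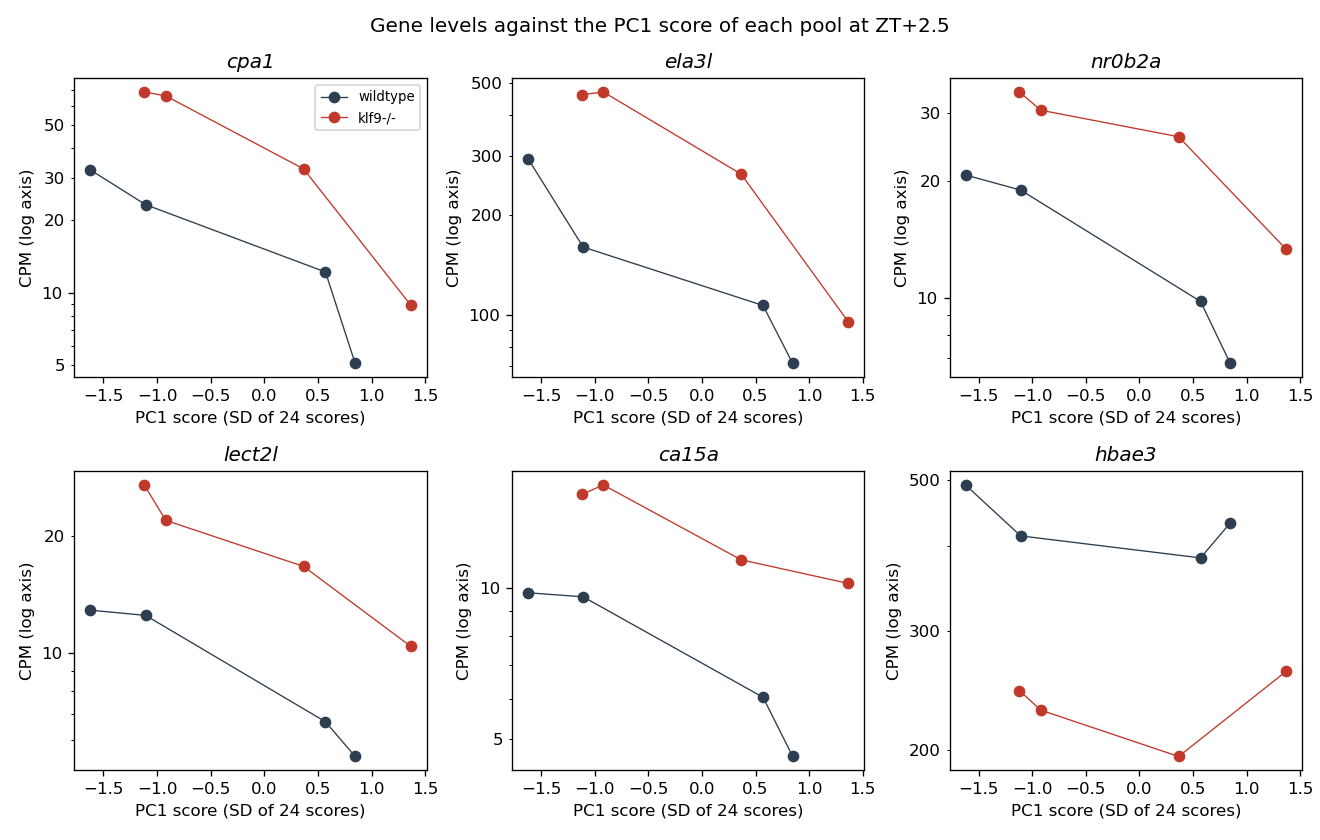
CPM (log axis) of 6 genes against the PC1 score of each pool at ZT+2.5, wildtype in dark blue and klf9-/- in red, with lines joining the 4 pools of a genotype. For cpa1, ela3l, nr0b2a, lect2l and ca15a the levels fell along PC1 in both genotypes with the klf9-/- pools displaced upward, and for hbae3 the klf9-/- pools lay below at every score.

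Intestinal genes were positive in 25 of 27 with a median of 0.40, and 1, the brush-border protease mep1a.2, was called (16.6, 33.6, 37.5 and 34.7 CPM against 14.9, 18.2, 26.3 and 26.4 CPM, log2 fold change 0.60, adjusted p = 0.062), with 7 called by DESeq2. Without the PC1 term the intestinal median was 0.26 and edgeR called 0. Summed intestinal levels overlapped, at 2862 to 5729 CPM in klf9-/- and 1801 to 5036 CPM in wildtype pools. Cytochromes P450 of these families oxidize drugs, steroids and other lipids. Of 47 cytochrome P450 genes of families 1 to 4, 40 were positive and 4 were called higher, with 10 by DESeq2. The largest was cyp2p7 at 16.4, 18.7, 21.8 and 20.8 CPM in klf9-/- and 8.15, 11.1, 9.33 and 11.4 CPM in wildtype pools, which did not overlap (log2 fold change 0.98, SE 0.10, adjusted p = 0.0020). The others called were cyp1d1, cyp3c3 and cyp2p10, with log2 fold changes of 0.67, 0.67 and 0.63. Of 47 conjugating enzymes 42 were positive and 3 sulfotransferases were called: sult1st3 (log2 fold change 1.02, adjusted p = 0.072), sult3st4 (log2 fold change 0.76, adjusted p = 0.063) and sult5a1 (log2 fold change 0.59, adjusted p = 0.042). The median of the conjugating enzymes was 0.29, and without the PC1 term it was 0.15 with 0 called.

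Single hormone and metabolic genes of liver and gut rose beside these lists. Deiodinase dio1, which converts thyroid hormone, was 17.8, 23.5, 25.5 and 23.4 CPM in klf9-/- and 11, 12.8, 15.7 and 15.4 CPM in wildtype pools without overlap (log2 fold change 0.76, SE 0.075, adjusted p = 0.0020), the one gene called of 11 thyroid hormone genes. The repressor nr0b2a, which in mammals restrains bile acid synthesis, was 13.4, 26, 30.5 and 34 CPM against 6.76, 9.77, 19 and 20.7 CPM with overlapping pools (log2 fold change 1.08, SE 0.13, adjusted p = 0.0078). The gluconeogenic enzymes pck1 and g6pca.2, which act early and at the end of glucose production, were the 2 called of 22 glucose genes (log2 fold change 0.90, adjusted p = 0.047 and log2 fold change 0.87, adjusted p = 0.026). Both overlapped between genotypes, at 71.5, 164, 206 and 212 CPM against 59.198, 58.6, 151 and 119.6 CPM for pck1. The cholesterol exporter abca1b (log2 fold change 0.88, adjusted p = 0.085) and the fatty acid oxidation enzyme decr1 (log2 fold change 0.58, adjusted p = 0.013) were also called. Uridine phosphorylase upp2, a pyrimidine salvage enzyme, was 1.61, 3.38, 4.46 and 3.44 CPM against 0.591, 0.822, 1.44 and 1.16 CPM (log2 fold change 1.79, SE 0.20, adjusted p = 0.0032). The test was missed without the PC1 term for mep1a.2, cyp3c3, cyp2p10, sult1st3, sult3st4, sult5a1, nr0b2a, pck1, g6pca.2, abca1b and decr1 (adjusted p = 0.16 to 0.77), with the replicate block in its place for cyp2p10, pck1, g6pca.2 and abca1b (adjusted p = 0.11 to 0.22), with the replicate block in its place, by the fold threshold alone, for mep1a.2 (log2 fold change 0.49), and with the block and PC1 together for cyp2p10, sult3st4, pck1, g6pca.2, abca1b and decr1 (adjusted p = 0.11 to 0.40). Omission of a single pool ended the call for mep1a.2, cyp3c3, cyp2p10, sult1st3, sult3st4 and pck1 (adjusted p = 0.13 to 0.23, highest without klf9-/- replicate 3), sult5a1 (adjusted p = 0.13, highest without klf9-/- replicate 4) and abca1b (adjusted p = 0.21, highest without wildtype replicate 1).

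Most embryonic globins fell. All 8 globin genes tested were negative, against 48.3% of all genes, with a median of -0.59, and 5 were called lower. The alpha globin hbae3 was 261, 196, 229 and 245 CPM in klf9-/- and 432, 384, 413 and 491 CPM in wildtype pools (log2 fold change -0.88, SE 0.10, adjusted p = 0.0046), and hbae5 was 1.76, 0.789, 0.700 and 1.16 CPM against 5.43, 11.4, 9.14 and 5.82 CPM (log2 fold change -2.92, SE 0.36, adjusted p = 0.012). The beta globins hbbe1.1 (242, 154, 164 and 173 CPM against 365, 272, 450.4 and 426 CPM, log2 fold change -1.04, adjusted p = 0.054) and hbbe2 (92.4, 68.1, 70.7 and 76 CPM against 112, 119, 122 and 129 CPM, log2 fold change -0.66, adjusted p = 0.011) and the alpha globin hbae1.1 (log2 fold change -0.52, adjusted p = 0.014) completed the calls. In none of the 5 did the pools overlap, and the 8 genes together summed with their low-count copies to 959 to 1196 CPM per klf9-/- pool and 1571 to 1708 CPM per wildtype pool. Globin copies are near-identical and reads may be split between them. The median was -0.59 without PC1, with the same 5 genes counted as called, and the globins hardly followed PC1 (median correlation -0.05).

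Of 18 other erythroid genes 16 were negative with a median of -0.20, and 2 were called lower. Alas2, the first enzyme of heme synthesis in red cells, was 15.7, 16.9, 17.8 and 19.8 CPM in klf9-/- and 30.6, 27.4, 25.5 and 30.4 CPM in wildtype pools with no overlap (log2 fold change -0.69, SE 0.082, adjusted p = 0.0046). The transferrin receptor tfr1a, which imports iron, was 12.8, 22.1, 21.8 and 23.7 CPM against 28.4, 26.2, 35 and 33.4 CPM (log2 fold change -0.58, SE 0.12, adjusted p = 0.035). The membrane skeleton gene epb41b had a log2 fold change of -0.38 (adjusted p = 0.036), and the transcription factors gata1a (log2 fold change -0.47, adjusted p = 0.15) and klf1 (log2 fold change -0.22, adjusted p = 0.51) did not pass the test. In the opposite direction, blvrb, which reduces the heme breakdown product biliverdin, was 16.5, 13.4, 17.9 and 17.1 CPM against 2.58, 4.66, 6.9 and 5.57 CPM (log2 fold change 1.81, SE 0.22, adjusted p = 0.0098). Significance was lost without the PC1 term for tfr1a (adjusted p = 0.22), with the replicate block in its place for tfr1a (adjusted p = 0.11), and with the block and PC1 together for hbbe1.1, tfr1a and blvrb (adjusted p = 0.20 to 0.29). With 1 pool left out, the call ended for hbbe1.1 and tfr1a (adjusted p = 0.12 to 0.16, highest without klf9-/- replicate 3). Under the fold threshold with a pool left out were hbae1.1 (-0.452 without wildtype replicate 4).

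Several cholesterol synthesis enzymes were lower. Of 24 sterol biosynthesis genes 20 were negative with a median of -0.42, and 6 were called lower, with 10 by DESeq2. Lanosterol demethylase cyp51 was 21.3, 20.9, 17.3 and 22.8 CPM in klf9-/- pools and 29.6, 48.3, 72.4 and 47.1 CPM in wildtype pools (log2 fold change -1.20, SE 0.26, adjusted p = 0.065). Hmgcra, the rate-limiting reductase of the pathway, was 41.6, 47.7, 44.1 and 43.5 CPM against 53.2, 118, 156 and 82.1 CPM. Its mutant pools were tightly grouped and all below wildtype, whose pools spread from 53.2 to 156, and the difference did not pass the test (log2 fold change -1.16, SE 0.33, adjusted p = 0.12). The synthase hmgcs1 one step before it was 55, 60, 56.9 and 64.2 CPM against 72.6, 104, 157 and 113 CPM (log2 fold change -0.85, SE 0.18, adjusted p = 0.052). The isomerase ebp (6.81, 7.76, 8.06 and 7.99 CPM against 9.34, 12.5, 17.4 and 15.4 CPM, log2 fold change -0.76, adjusted p = 0.012), msmo1, mvda and hsd17b7 were also called, with log2 fold changes of -0.91, -0.67 and -0.56 for the last 3.

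Wildtype replicate 1 was the lowest wildtype pool for each of these genes and replicate 3 the highest. Summed over the list, klf9-/- pools held 422 to 468 CPM and wildtype pools 485 to 888 CPM. Of 23 genes of sterol regulation and transport, 2 were called higher, nr0b2a and abca1b, described above, 3 were positive and 3 negative at an adjusted p of 0.1 or less, and the values ran from -0.38 to 1.08. Srebf2, the transcription factor that drives sterol synthesis genes (log2 fold change -0.36, adjusted p = 0.023), the receptor ldlrb (log2 fold change -0.37, adjusted p = 0.054) and the sterol carrier stard4 (log2 fold change -0.38, adjusted p = 0.054) were the 3 negative genes, and all were short of the fold threshold. Leaving out a pool left 2 to 12 sterol genes called lower, 12 without wildtype replicate 1, 3 without klf9-/- replicate 2, 2 without klf9-/- replicate 3 or 4 or wildtype replicate 2, and 4 without wildtype replicate 3. At the other times 12 genes of the list were called lower at ZT-3 and 9 at ZT0. The call was lost without the PC1 term for hmgcs1, msmo1 and mvda (adjusted p = 0.11 to 0.17), with the replicate block in its place for cyp51, hmgcs1 and msmo1 (adjusted p = 0.12 to 0.16), and with the block and PC1 together for cyp51, hmgcs1, msmo1 and mvda (adjusted p = 0.15 to 0.39). Leaving out 1 pool ended the call for cyp51, hmgcs1, msmo1 and mvda (adjusted p = 0.15 to 0.24, highest without klf9-/- replicate 3). The log2 fold change went under the threshold with 1 pool left out for hsd17b7 (-0.487 without wildtype replicate 3).

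**Figure D3:**
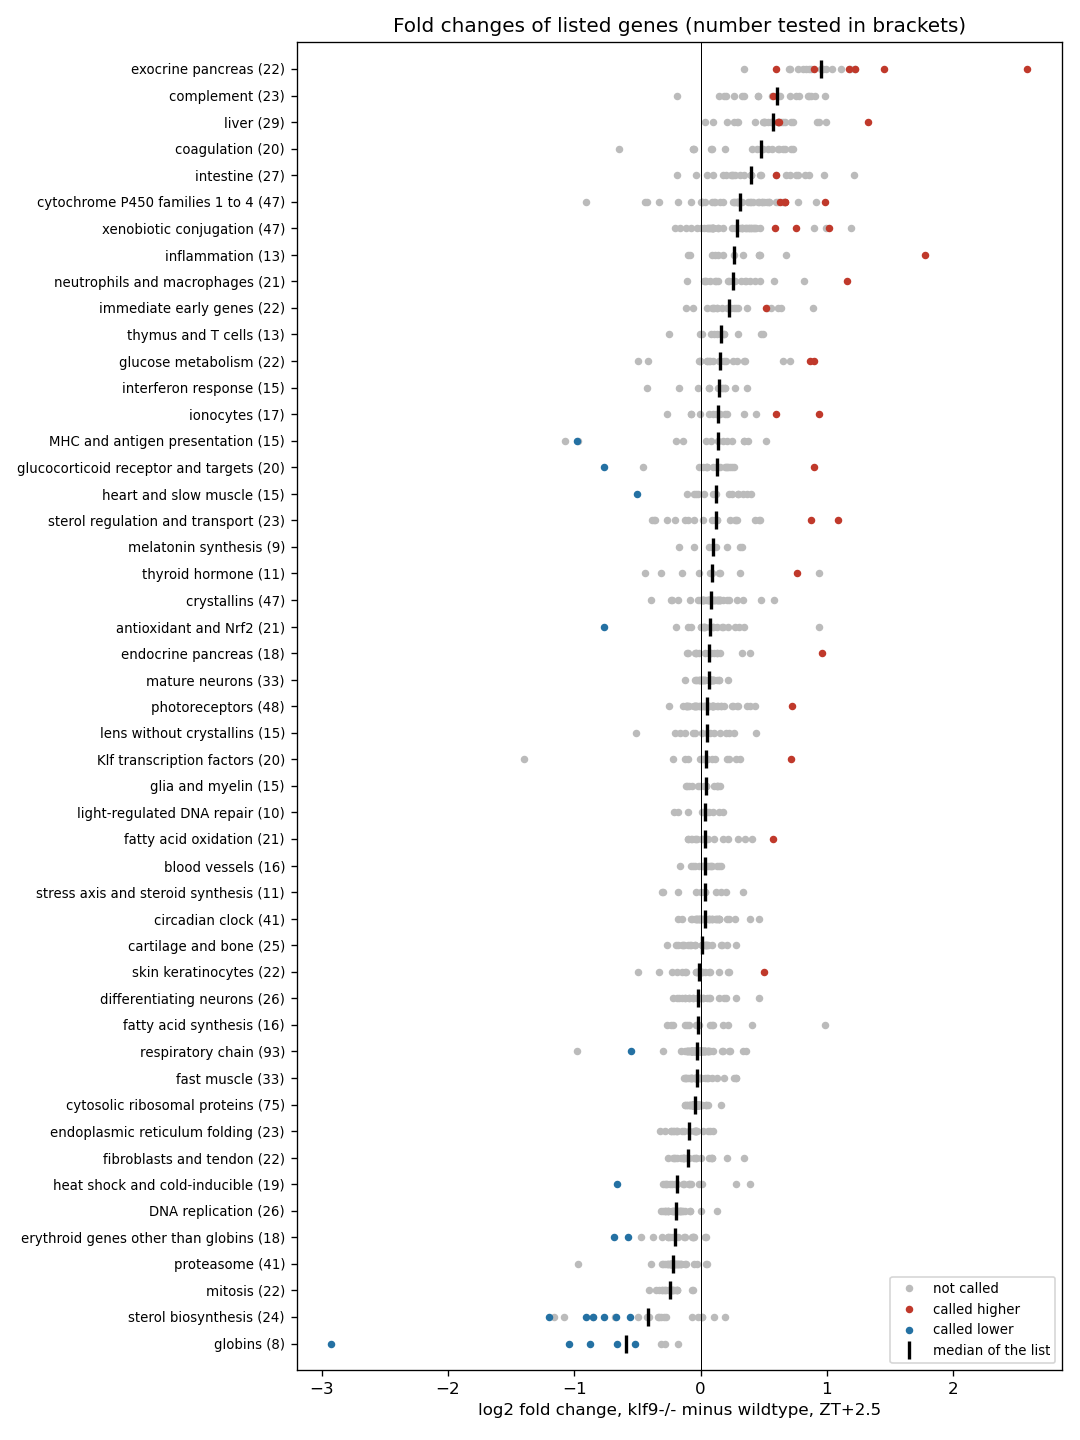
Log2 fold changes of each tested gene in the 49 tissue and pathway lists at ZT+2.5, klf9-/- over wildtype, with genes called higher in red, called lower in blue, others in grey and the list median as a black bar. Exocrine pancreas stood at the top with a median of 0.96 and globins at the bottom with a median of -0.59.

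Of 41 proteasome subunit genes 39 were negative with a median of -0.21, and 20 reached an adjusted p of 0.1 or less with a negative sign, against 2.87% of all genes, with 3.82% of all genes positive at that adjusted p, while 0 were called by edgeR or DESeq2 and 34 had an unadjusted p under 0.05. The lowest value was that of psmb9a, an inducible catalytic subunit, at 0.154, 0.187, 0.105 and 0.232 CPM against 0.305, 0.347, 0.337 and 0.338 CPM without overlap (log2 fold change -0.97, adjusted p = 0.11). In 25 of 41 all mutant pools were below all wildtype pools, against 4.64% of all genes tested. The ATPase subunit psmc3 had a log2 fold change of -0.27 (0.018, adjusted) and the catalytic subunit psmb6 -0.39 (0.033). The summed list was 1936 to 2183 CPM in klf9-/- and 2286 to 2455 CPM in wildtype pools. Without PC1 the median was -0.22.

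DNA replication genes were negative in 24 of 26 with a median of -0.19, and 8 reached an adjusted p of 0.1 or less at any fold, including the helicase subunits mcm2 (log2 fold change -0.22, adjusted p = 0.096), mcm4 (log2 fold change -0.26, adjusted p = 0.068) and mcm6 (log2 fold change -0.26, adjusted p = 0.097) and the nucleotide reductase subunit rrm1 (log2 fold change -0.26, adjusted p = 0.044). All 22 mitosis genes were negative with a median of -0.24, and 1 reached that adjusted p. In each of these 2 lists 0 genes were called by edgeR or DESeq2 and 16 had an unadjusted p under 0.05. Chaperones of the endoplasmic reticulum were negative in 19 of 23 with a median of -0.09, the disulfide isomerase pdia6 giving -0.32 (0.017, adjusted). Cytosolic ribosomal proteins had a median of -0.04 with 69 of 75 negative, and 0 were called by edgeR or DESeq2 or had an unadjusted p under 0.05.

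Metallothionein mt2, which binds zinc and copper and is a glucocorticoid target, was 48.4, 46.1, 48 and 44.6 CPM in klf9-/- and 80.3, 71.5, 77.2 and 91.4 CPM in wildtype pools (log2 fold change -0.77, SE 0.073, adjusted p = 0.0018). The inducible chaperone hsp70l was 25.9, 33.1, 28.4 and 27.3 CPM against 43.9, 39.5, 46.6 and 54.9 CPM (log2 fold change -0.66, SE 0.10, adjusted p = 0.012), the one gene called of 19 heat shock and cold-inducible genes. In neither mt2 nor hsp70l did the pools overlap. Of the 19 heat shock and cold-inducible genes 16 were negative, with a median of -0.19. At an adjusted p of 0.1 or less 4 were negative and 1 positive, beside 2.87% and 3.82% of all genes. Of 20 glucocorticoid receptor genes and targets, mt2 was called lower and pck1 higher. Of the 20, 17 were positive with a median of 0.13, and 7 positive and 2 negative had an unadjusted p under 0.05. The receptor nr3c1 (log2 fold change 0.14, adjusted p = 0.13) and its feedback target fkbp5 (log2 fold change 0.05, adjusted p = 0.97) were not called. The test was missed with the block and PC1 together, by the fold threshold alone, for hsp70l (log2 fold change -0.47).

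No call fell in the lists of neurons, glia, fast muscle, cartilage and bone, and blood vessels. None of 33 mature neuron, 26 differentiating neuron, 15 glia, 33 fast muscle, 25 cartilage and bone or 16 blood vessel genes was called by edgeR. Their medians lay between -0.03 and 0.06, and over these lists 3 of 148 genes reached an adjusted p of 0.1 or less at any fold, 11 an unadjusted p under 0.05, and DESeq2 called 0. Over all genes tested, edgeR called 1.67% higher and 0.609% lower. At an adjusted p of 0.1 or less and any fold, the shares were 3.82% and 2.87%. The share at an unadjusted p under 0.05 was not counted. Of 143 genes in 8 further lists (lens, crystallins, fibroblasts and tendon, thymus and T cells, fatty acid synthesis, light-regulated DNA repair, stress axis and melatonin synthesis) edgeR called 0 and DESeq2 2, 4 reached an adjusted p of 0.1 or less, 23 had an unadjusted p under 0.05, and the medians lay between -0.10 and 0.16. Of 93 respiratory chain genes 1 was called, cox7a1, a subunit of cytochrome oxidase, at 8.04, 11.8, 12.2 and 10.3 CPM against 13.4, 15.8, 19 and 15.2 CPM without overlap (log2 fold change -0.55, adjusted p = 0.046). Significance was lost without the PC1 term (adjusted p = 0.15) for cox7a1. With 1 pool left out, the call ended for cox7a1 (adjusted p = 0.15, highest without klf9-/- replicate 4).

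The red cone opsin opn1lw1 was 17.4, 14.2, 12.3 and 11.3 CPM in klf9-/- and 7.42, 10.1, 6.5 and 7.97 CPM in wildtype pools (log2 fold change 0.73, SE 0.12, adjusted p = 0.018), the one gene called of 48 photoreceptor genes, whose median was 0.05. Its tandem neighbour opn1lw2 was at -0.14 (0.23, adjusted), and as the copies are alike, reads may be split between them. The keratin krt17 was 721, 528, 578 and 537 CPM against 433, 452, 345 and 404 CPM (log2 fold change 0.50, SE 0.089, adjusted p = 0.021), 1 of 22 skin genes called. Of those 22 genes 10 were positive and 12 negative, with a median of -0.01. Slow myosin smyhc1 was 589, 735, 735 and 809 CPM against 1111, 958, 1058 and 952 CPM (log2 fold change -0.50, SE 0.094, adjusted p = 0.024). It was 1 of 15 heart and slow muscle genes called, and DESeq2 called 0 of them. The list went the other way, with 10 of 15 positive and a median of 0.13. Among 17 ionocyte genes, which move ions across larval skin, carbonic anhydrase ca15a (10.201, 11.4, 16 and 15.4 CPM against 4.61, 6.05, 9.59 and 9.77 CPM, log2 fold change 0.94, adjusted p = 0.0023) and calcium channel trpv6 (log2 fold change 0.59, adjusted p = 0.023) rose. The call was lost without the PC1 term for krt17, ca15a and trpv6 (adjusted p = 0.11 to 0.69), with the replicate block in its place, by the fold threshold alone, for trpv6 (log2 fold change 0.49), with the block and PC1 together for opn1lw1, krt17 and smyhc1 (adjusted p = 0.12 to 0.25), and with the block and PC1 together, by the fold threshold alone, for trpv6 (log2 fold change 0.46). The log2 fold change went under the threshold with 1 pool left out for krt17 (0.432 without klf9-/- replicate 1), smyhc1 (-0.410 without wildtype replicate 1) and trpv6 (0.477 without wildtype replicate 1).

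Of 41 circadian genes 0 were called by edgeR or DESeq2, 7 higher and 1 lower had an unadjusted p under 0.05, 1 reached an adjusted p of 0.1 or less, and the median was 0.04. Per1a, a light- and cortisol-sensitive period gene, was 20.2, 32.3, 25.7 and 30.8 CPM in klf9-/- and 29.7, 20.3, 25.9 and 25 CPM in wildtype pools, which overlapped (log2 fold change 0.12, SE 0.17, adjusted p = 0.76). The activator paralog npas2 was the gene at that adjusted p (log2 fold change 0.39, adjusted p = 0.033), and it lies among the 200 placed genes nearest to klf9 that are treated below. The cryptochromes cry1a (log2 fold change 0.03, adjusted p = 0.75) and cry4 (log2 fold change -0.18, adjusted p = 0.20) did not pass. Of 22 immediate early genes 20 were positive with a median of 0.23, and junbb, an AP-1 subunit, was called at 10.1, 9.55, 10.197 and 9.64 CPM against 9.27, 5.92, 6.93 and 5.2 CPM (log2 fold change 0.52, adjusted p = 0.092). The test was missed without the PC1 term (adjusted p = 0.22), and with the block and PC1 together (adjusted p = 0.15) for junbb. Omission of a single pool ended the call for junbb (adjusted p = 0.24, highest without klf9-/- replicate 3).

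Other large declines came from genes of separate roles. Alpha tubulin tuba1b was 52.2, 29.9, 32.7 and 30.6 CPM in klf9-/- and 103, 74.6, 62 and 63.3 CPM in wildtype pools (log2 fold change -1.12, SE 0.13, adjusted p = 0.0083), with mutant replicate 1 above its group. The imine deaminase rida, which clears reactive amino acid intermediates, was 35.2, 28.1, 31.8 and 32.1 CPM against 42.3, 61, 75.8 and 74 CPM (log2 fold change -0.94, SE 0.16, adjusted p = 0.031). Serine protease inhibitor serpinb1l2 (0.903, 0.311, 0.700 and 0.527 CPM against 1.83, 1.19, 2.06 and 1.95 CPM, log2 fold change -1.50, adjusted p = 0.030), the nuclear body gene sp100.3 (0.661, 0.519, 0.402 and 0.675 CPM against 1.47, 1.92, 1.65 and 1.11 CPM, log2 fold change -1.48, adjusted p = 0.0090) and the class I MHC gene mhc1uba (1.1, 1.43, 0.892 and 0.844 CPM against 2.33, 1.86, 1.61 and 2.44 CPM, log2 fold change -0.98, adjusted p = 0.033) were lower at low levels. None of the 5 overlapped between genotypes. At still lower levels, odf3l2b, related to sperm tail fiber genes, was 0.0661, 0.104, 0.0875 and 0.148 CPM against 0.215, 0.347, 0.244 and 0.244 CPM (log2 fold change -1.35, adjusted p = 0.074) and the zinc finger gene znf972 was 0.22, 0.519, 0.42 and 0.253 CPM against 0.538, 0.585, 1.03 and 1.01 CPM (log2 fold change -1.05, adjusted p = 0.084). Significance was lost without the PC1 term for tuba1b, mhc1uba, odf3l2b and znf972 (adjusted p = 0.1016 to 0.21), with the replicate block in its place for rida (adjusted p = 0.11), and with the block and PC1 together for rida, mhc1uba, odf3l2b and znf972 (adjusted p = 0.14 to 0.32). With 1 pool left out, the call ended for rida, mhc1uba, odf3l2b and znf972 (adjusted p = 0.11 to 0.21, highest without klf9-/- replicate 3) and serpinb1l2 (adjusted p = 0.1033, highest without klf9-/- replicate 4).

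The extreme fold changes belonged to clone-named genes that were near all-or-none. CR936371.1 was 6.43, 6.64, 7.0 and 4.94 CPM in klf9-/- and 0 in all 4 wildtype pools, at least 113-fold higher against a floor of 3 counts per library. BX469930.1 was 55, 51.7, 56.5 and 45.1 CPM against 0.43, 0.402, 0.281 and 0.356 CPM (log2 fold change 7.12, adjusted p = 2.3e-09), and BX510917.1 was 4.54, 3.67, 4.39 and 3.61 CPM against 0.0538, 0, 0 and 0.0188 CPM. Conversely si:dkey-242h9.3 was 0 in all 4 klf9-/- pools and 1.99, 2.34, 1.48 and 1.69 CPM in wildtype pools, at least 30.7-fold lower against the same floor. Each of these 4 kept its direction and its call at ZT-3 and ZT0. The other 4 of the 5 lowest fold changes were of genes with 2 or more mutant pools under the floor of 3 counts, so no fold is given. Si:dkey-58f10.12 was 0.022, 0, 0.035 and 0.0422 CPM in klf9-/- and 0.233, 0.639, 1.52 and 1.37 CPM in wildtype pools (adjusted p = 0.0025), and BX649345.2 was 0.0661, 0, 0.035 and 0 CPM against 0.681, 0.749, 0.337 and 0.188 CPM (adjusted p = 0.0045). FP245462.1 was 0.0881, 0, 0 and 0.0211 CPM against 0.771, 0.256, 0.337 and 0.506 CPM (adjusted p = 0.020), and si:ch211-57b15.2 was 0.198, 0.0208, 0.0175 and 0.316 CPM against 0.878, 1.0, 1.5 and 0.769 CPM (adjusted p = 0.039). In all 4 every mutant pool was below every wildtype pool. The other 2 of the 5 highest were si:dkeyp-82b4.4 at 0.397, 0.477, 0.28 and 0.211 CPM against 0.0538, 0, 0 and 0 CPM (adjusted p = 0.011) and BX571809.1 at 0.242, 0.228, 0.612 and 0.316 CPM against 0, 0, 0 and 0.113 CPM (adjusted p = 0.025). No function is annotated for these clone-named genes in the files used here. Whether their differences came from loss of Klf9 or from other sequence differences between the mutant and wildtype fish was not tested. A channel-like gene labelled TMC1, of the family that carries mechanotransduction in hair cells of mouse and human, was 9.78, 9.38, 9.58 and 8.8 CPM in every mutant pool against 1.72, 1.5, 1.78 and 1.48 CPM (log2 fold change 2.53, SE 0.091, adjusted p = 2.1e-06), a spread within each genotype far below the gap between them. Tektin tekt2, a structural protein of cilia, was 0.837, 0.768, 0.927 and 1.03 CPM against 0.161, 0.274, 0.244 and 0.263 CPM (log2 fold change 1.94, SE 0.21, adjusted p = 0.0029).

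Called genes were counted by their place relative to klf9. The gene order was taken from RefSeq's GRCz12tu assembly, where klf9 lies on chromosome 5 and 18613 of the genes tested (82.7%) and 73.0% of the called genes could be placed. The authors counted on another build, so only order is used and no position is given. Among the 200 placed genes nearest to klf9, 100 on each side, 23 were called (11.5%), 15 higher and 8 lower. The share was 2.54% over the rest of chromosome 5, 1.88% over all other chromosomes and 1.0% to 3.43% for single ones. The difference in share was not tested. In 19 of the 23 the pools did not overlap, beside 225 of all 377 genes called higher and 110 of all 137 called lower. Of the 200 genes, called or not, 19.5% had pools that did not overlap. Among all genes tested the shares were 3.39% higher and 4.64% lower. All 23 had the same sign at ZT-3 and at ZT0, in other pools, with 16 and 19 called there. Without PC1 9 of the 23 were still called, and leaving out 1 pool kept 13 to 22 of them, the fewest without klf9-/- replicate 3. In this design loss of Klf9 and sequence differences linked to the mutant klf9 allele cannot be told apart for these genes.

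Several genes described elsewhere sit in this stretch. Anxa1a, an annexin that dampens inflammation, was 133, 94.4, 104 and 105 CPM in klf9-/- and 218, 201, 216 and 218 CPM in wildtype pools (log2 fold change -0.98, SE 0.094, adjusted p = 0.0020), with 8 placed genes between it and klf9. Cyp1d1 had 6 genes between and was 24.3, 26.4, 32.2 and 28.6 CPM against 15.7, 17.4, 18.9 and 19.5 CPM, and the pancreatic ela3l was separated from klf9 by 1 tested gene. Tmc2b, another channel-like gene, was 2.93, 3.74, 2.34 and 2.07 CPM against 0.914, 1.3, 1.14 and 0.863 CPM (log2 fold change 1.34, adjusted p = 0.0088), with 5 genes between. Thy1, a surface glycoprotein of neurons and immune cells, was 17.1, 11.9, 16.2 and 15.5 CPM against 7.65, 5.83, 9.41 and 10.7 CPM with no overlap (log2 fold change 0.91, SE 0.17, adjusted p = 0.034), with 79 genes between. The cathepsin ctsll (2.0, 1.25, 0.805 and 1.1 CPM against 0.574, 0.292, 0.319 and 0.113 CPM, log2 fold change 1.88, adjusted p = 0.0092), the cobalamin carrier tcn2 (log2 fold change -0.64, adjusted p = 0.0058), the peptidase erap1b (log2 fold change -0.86, adjusted p = 0.016) and the linker histone histh1l (log2 fold change -0.70, adjusted p = 0.0046) were called within the same 200. The call was lost without the PC1 term for thy1 and ctsll (adjusted p = 0.1007 for both). For tcn2, erap1b and histh1l the fit without PC1 is not given. Leaving out 1 pool ended the call for thy1 (adjusted p = 0.11, highest without klf9-/- replicate 3).

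**Figure D4:**
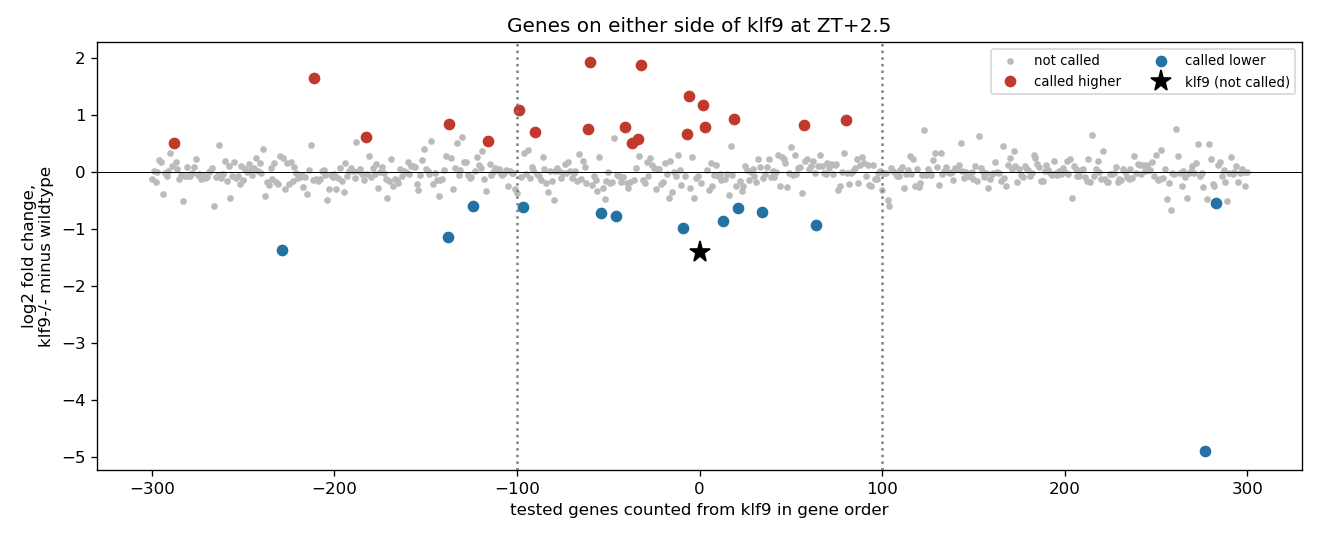
Log2 fold change at ZT+2.5 of up to 300 tested genes on each side of klf9 in RefSeq gene order, with genes called higher in red, called lower in blue, others in grey and klf9 as a star. Within the dotted lines, 100 genes on each side, 15 genes were called higher and 8 lower.

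The morning differences returned at the other times. Of 368 genes called higher at ZT+2.5 and tested at both other times, 349 were positive at both, and of 135 called lower 125 were negative at both, in pools that share no larvae with those of ZT+2.5. Of the 377, 172 were also called at ZT-3 and 211 at ZT0, and of the 137, 69 and 76. At those times 1.98% and 2.41% of all genes tested were called higher and 0.947% and 1.01% lower. The iron gene hamp had log2 fold changes of 1.15 and 1.40 at ZT-3 and ZT0 beside 1.77 at ZT+2.5, dio1 0.70 and 0.93 beside 0.76, and hbae3 -0.66 and -0.71 beside -0.88. The slow myosin smyhc1 was -0.03 at ZT-3 and -0.53 at ZT0, and lgals9l5 -0.02 and 0.75.

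**Figure D5:**
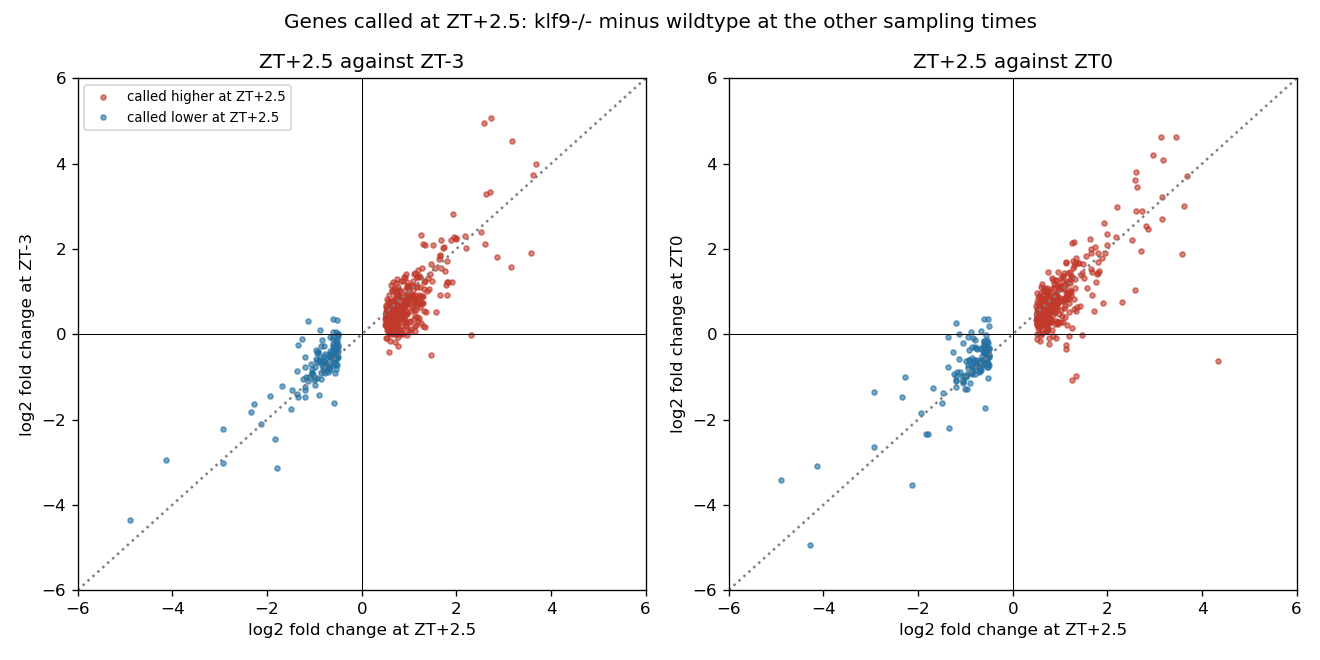
Log2 fold changes at ZT-3 (left) and ZT0 (right) against those at ZT+2.5 for the genes called at ZT+2.5, klf9-/- over wildtype, called higher in red and lower in blue, with the line of equality dotted. Of the genes tested at both other times 349 of 368 higher and 125 of 135 lower kept their sign at both, and 9 called genes with a value beyond 6 are outside the axes in at least 1 panel.

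Whether the genotype effect at ZT+2.5 differed from the mean effect at the other times was tested across 23158 genes in one fit of all 24 pools. One gene (0.00432%) passed at adjusted p of at most 0.1, and 950 (4.1%) had an unadjusted p under 0.05. That gene, si:dkey-18a10.3, was 27.7, 35.6, 35.5 and 35.5 CPM in klf9-/- and 25.7, 25, 29.8 and 28.5 CPM in wildtype pools at ZT+2.5, a log2 fold change of 0.33, beside 1.48 at ZT-3 and 1.26 at ZT0, and the difference of effects was -1.12 (adjusted p = 0.034). The adjusted p was 0.46 with the replicate block in place of PC1, and 0.12 and 0.10 without wildtype replicate 3 or 4. The next genes were nab1a, a corepressor of Egr factors, the collagen hydroxylase p4ha1b, zgc:162144 and the neuropeptide precursor vgf, none past the threshold. Vgf was 39, 47, 36.5 and 36.1 CPM against 31.8, 30.2, 22.8 and 18.9 CPM at ZT+2.5 (log2 fold change 0.59, adjusted p = 0.023), with -0.16 and -0.02 at ZT-3 and ZT0, and its difference of effects did not pass.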

How the data were processed

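Whole-larva RNA was sequenced from pools of 6 larvae. Per the labels, the authors trimmed reads with Trim Galore 0.6.5, aligned them with STAR 2.7.5c and estimated expected counts per gene with RSEM 1.3.3 on Ensembl's zebrafish annotation. Expected counts need not be whole (18.1% of the values used here were not) and were rounded. The authors also deposited log2 values from DESeq2's rlog transformation, used here for PC1 only. Their tables of fold changes and p-values were not used. RSEM splits reads among near-identical genes.

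With edgeR 4.0.16 in R 4.3.3, genes were filtered by filterByExpr, scaled by TMM (factors 0.968 to 1.03) and tested with glmQLFit and glmQLFTest on genotype and PC1 (21.7% of the variance), within the 8 pools. PC1 was recomputed from the rlog values, and the paper gives a larger share of variance for its own PC1. CPM are per TMM-scaled library. A floor was 3 counts per library, 0.0525 to 0.0661 CPM, and covers counting error only. Means of groups of 4 were compared by exact two-sided permutation tests, which cannot go below p = 0.0286.

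Same-numbered pools of the genotypes deviated together (correlations 0.30 to 0.52 over genes), which by the rule used here counts as pairing, so fits with the number as a block were made. Some differently numbered pools did so too. Replicate 3 of klf9-/- correlated with wildtype 4 at 0.36, 4 with wildtype 3 at 0.29, and 1 with wildtype 2 at 0.25. All other differently numbered pairs were negative. After PC1 was taken out the same-numbered correlations were -0.39 to 0.26, so the pairing is not seen apart from PC1. All 12 replicate pairs within a genotype differed beyond sampling noise.

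Named genes were klf9, hmgcra, cyp51, thy1, per1a, the 5 largest changes each way among called genes, the 12 largest each way with a gene name and pools apart, up to 6 called genes per list (or its highest and lowest gene), and the 5 genes with the smallest p in the comparison of times. Other genes named (members of a list with values, and genes near klf9) were chosen after their values were seen. The values of 1 called gene that the rule names are not reported here, and uncalled highest and lowest members are given only where the text names them. The 49 lists were written from general knowledge, 28 of 911 symbols did not match, and members, lists and tests were chosen with earlier results of these data known. Scripts were tested on simulated counts with known changes. Alternatives were the fits without PC1, with PC1 of the 8 pools, with the block, RLE scaling, DESeq2 1.42.0, other filters and thresholds, all 24 pools, and leaving out each pool.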

Additional observations from a re-analysis of the deposited data

Results flagged for a closer look

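Among 134 genes followed in both groups of 4 pools, 11 of 268 groups had 1 pool whose gap to the nearest other exceeded 0.829 of the group's range, where chance gives about 1 in 20 groups. In the klf9-/- group, replicate 1 stood apart 5 times. It was high for tuba1b (52.2 CPM against 29.9 to 32.7 in the other 3), cry4 (13.8 against 11.4 to 11.6) and dut, a nucleotide pool enzyme (37.7 against 27.3 to 29.0). It was low for the sulfotransferase sult1st3 (9.08 against 21.9 to 23.5) and for si:dkey-18a10.3 (27.7 against 35.5 to 35.6). Replicate 2 was low for C18H15orf48 (0.249 against 0.527 to 0.560) and replicate 4 high for the sterol enzyme mvda (9.22 against 6.70 to 6.92).

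In the wildtype group, replicate 4 was high for lgals9l5 (3.40 CPM against 0.753 to 1.18) and for BX571809.1 (0.113 against 0 in the other 3). Replicate 1 was the single pool with counts for si:dkeyp-82b4.4 (0.0538 CPM), and replicate 2 was low for anxa1a (201 against 216 to 218). The genotype effect at ZT+2.5 differed from that at the other times for si:dkey-18a10.3 alone, by -1.12 on the log2 scale, with edgeR's adjusted p of 0.034.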

How the results depend on the processing

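Every called gene kept its sign without PC1, with the block, in DESeq2, with all 24 pools in one fit and with any pool left out. Against 377 higher and 137 lower, there were 92 and 52 without PC1, 859 and 647 with no fold threshold, 129 and 37 with a fold threshold of 1, 237 and 90 at adjusted p of 0.05, and 583 higher with all 24 pools in one fit. Leaving out 1 pool gave 183 to 399 higher and 75 to 185 lower. DESeq2 called 522 higher and 158 lower. With the replicate block in place of PC1 the counts were 379 and 163, sharing 290 and 120 genes with the fit by PC1, and with block and PC1, at 2 residual degrees of freedom, 302 and 142, sharing 187 and 75. The difference in klf9 passed in DESeq2 (-1.42) and with all 24 pools (-1.39) and without wildtype replicate 1 (-0.94), and was -1.41 under the block in place of PC1 and -1.57 to -0.94 with a pool left out. The comparison of times called 0 genes with the block in place of PC1, 6 in DESeq2 and 0 to 3 with a pool left out. The PC1 difference ranged from -0.23 to 0.64 with a pool left out, negative without klf9-/- replicate 1 (-0.23) and wildtype replicates 3 (-0.0085) or 4 (-0.18). The proteasome gene psma6l turned to -0.0023 without klf9-/- replicate 1 and was at most 0.091 with another pool left out. The cause of these shifts was not tested. Of the 84 called genes named, 47 lost their call without PC1, 18 with the block in its place and 37 with both. At these depths, genes under about 0.06 CPM cannot be told from 0, and 96 genes called higher and 35 called lower averaged under 1 CPM.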
